A study of Mus musculus with 22 samples.

Results

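The genes described here are 10 markers used to tell beige, brown and white adipocytes apart: Slc36a2, P2rx5, Otop1, Car4, Tbx1, Cited1, Hoxc9, Tnfrsf9, Tmem26 and Epsti1. They were taken by name, with earlier results of these data known, and they are 10 of the 22180 genes measured. Each was read by exactly 1 probe set (a group of short probes for 1 transcript). Expression was measured in the inguinal white fat pad, the subcutaneous depot of the groin, with 22 whole-transcript arrays, 1 mouse per array. There were 5 arrays of PPARα-null mice at 5 °C, 6 of PPARα-null mice at 28 °C, 5 of wild-type mice at 5 °C and 6 of wild-type mice at 28 °C. All mice were males on a C57BL/6 background, 3 to 4 months old when the experiment began, and all first spent 5 weeks at 28 °C, which is thermoneutral for a mouse. Those exposed to cold were then kept at 21 °C for 1 week and at 5 °C for 10 days, while the others stayed at 28 °C. The null mice lacked the nuclear receptor in every tissue, so the comparison of genotypes is not one of fat alone. The labels give 10 mice in each group, 40 in all, and the sources used here do not say how the 22 were picked.

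Beige adipocytes are heat-producing fat cells that appear among white adipocytes in subcutaneous fat during cold exposure, while classical brown adipocytes form depots of their own. Both burn fuel through the uncoupling protein UCP1 and are rich in mitochondria, and the markers include proteins of the cell surface and transcription regulators. PPARα is a receptor for fatty acids that switches on genes of fatty acid oxidation, and the study asked whether browning in the cold needs it. Levels are log2 values, so that a difference of 1 is a doubling, and the level of one gene's probe set cannot be set against that of another.

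The windows around the annotated starts of 4 markers are shown because these genes stand for the different outcomes described below. Otop1 had the largest increase of the markers, Tbx1 a small one, and Tmem26 and Epsti1 were lower in the cold. Each window runs from 250 bases before the start to 50 bases after it, 5′ to 3′ on the gene's strand, from RefSeq on assembly GRCm38.p6. The table of starts held 11 windows for 7 of the 10 markers, and none for Slc36a2, P2rx5 and Hoxc9. Capitals mark a match to the nuclear receptor half-site AGGTCA, which reads TGACCT where it lies on the other strand, to the half-site TGACG of the cyclic AMP element, or to the interferon-stimulated response element. Otop1 lies on the plus strand of chromosome 5 (chr5:38277154-38277453), the second start of Tbx1 on the minus strand of chromosome 16 (chr16:18590622-18590921), Tmem26 on the plus strand of chromosome 10 (chr10:68723496-68723795) and Epsti1 on the plus strand of chromosome 14 (chr14:77903989-77904288).
Otop1: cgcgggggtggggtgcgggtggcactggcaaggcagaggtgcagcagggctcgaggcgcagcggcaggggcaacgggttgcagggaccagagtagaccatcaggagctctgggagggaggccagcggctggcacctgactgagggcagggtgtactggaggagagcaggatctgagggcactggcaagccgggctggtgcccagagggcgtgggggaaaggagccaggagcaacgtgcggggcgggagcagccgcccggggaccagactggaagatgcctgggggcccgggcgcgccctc
Tbx1, second start: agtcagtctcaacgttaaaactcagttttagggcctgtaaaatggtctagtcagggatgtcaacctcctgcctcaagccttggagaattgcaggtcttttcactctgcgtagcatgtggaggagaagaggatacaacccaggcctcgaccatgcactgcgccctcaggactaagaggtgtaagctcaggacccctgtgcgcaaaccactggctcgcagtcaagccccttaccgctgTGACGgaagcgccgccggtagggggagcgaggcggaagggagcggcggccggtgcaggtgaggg
Tmem26: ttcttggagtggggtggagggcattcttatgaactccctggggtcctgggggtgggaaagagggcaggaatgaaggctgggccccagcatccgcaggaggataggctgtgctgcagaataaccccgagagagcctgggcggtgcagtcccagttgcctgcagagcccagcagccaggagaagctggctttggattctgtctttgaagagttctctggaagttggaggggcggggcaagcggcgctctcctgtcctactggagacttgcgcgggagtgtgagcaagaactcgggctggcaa
Epsti1: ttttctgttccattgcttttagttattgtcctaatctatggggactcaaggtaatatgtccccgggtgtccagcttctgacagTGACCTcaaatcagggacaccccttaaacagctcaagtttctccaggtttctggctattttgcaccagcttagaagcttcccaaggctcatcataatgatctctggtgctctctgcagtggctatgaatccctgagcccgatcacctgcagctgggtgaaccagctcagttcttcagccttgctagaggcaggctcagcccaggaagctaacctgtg
Both annotated starts of Tbx1 had a TGACG, which overlaps no other match there: it began at position -14 from the second start and 30 from the first. The match in Epsti1 was a nuclear receptor half-site that began at position -167 from the start. TGACG was present on either strand in 20.8% of all 32851 windows and AGGTCA in 16.3%, so neither match sets a marker apart. The windows of Otop1, Tmem26 and Car4 held none of the 8 motifs searched on both strands. The others were the direct repeat bound by PPARα with its partner RXR, which is AGGTCA repeated after any 1 base (0.0396% of all windows), TCAAGGTCA of oestrogen-related receptors (0.423%), TGACGTCA, the full cyclic AMP element (1.79%), the early B-cell factor palindrome of TCCC, any 2 bases and GGGA (0.904%), the interferon-stimulated response element of GAAA repeated after any 2 bases (3.44%) and CCAAT (37.4%). AGGTCA is contained in the direct repeat and in TCAAGGTCA, and TGACG in TGACGTCA. Tnfrsf9 and Cited1 had an AGGTCA at 1 of their starts and CCAAT at another, and Cited1 also a TGACG. The Otop1 window was 71.7% G and C, that of Tmem26 60.7% and that of Epsti1 49.7%, against a median of 52.7% over all windows. A match describes letters only and is not a binding site. A missing match says little either, least of all for the direct repeat, which so few of all windows held in this exact form.

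The pads carried strong adipocyte signal in every group. The mean log2 level of 5 measured adipocyte markers was 10.62 ± 0.06 in null mice at 5 °C (SD, n = 5), 10.62 ± 0.09 in null mice at 28 °C (n = 6), 10.57 ± 0.06 in wild-type mice at 5 °C (n = 5) and 10.61 ± 0.07 in wild-type mice at 28 °C (n = 6). The probe set of Ppara, the targeted gene, does not check the genotype labels. It ran between 5.77 and 7.10 with a median of 5.99 in null mice at 5 °C, and between 4.14 and 5.45 with a median of 4.91 in null mice at 28 °C. In wild-type mice it ran between 6.13 and 6.98 with a median of 6.50 at 5 °C, and between 4.42 and 5.00 with a median of 4.74 at 28 °C. The sources used here do not say whether its probes fall inside the part that was disrupted. Array medians lay between 4.16 and 4.25, and the correlation of any pair of arrays over all probe sets between 0.958 and 0.981. No array was left out. Their number limits the precision.

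Cold split the 10 markers. In PPARα-null mice 5 of them were higher at 5 °C than at 28 °C (Otop1, P2rx5, Slc36a2, Tbx1 and Car4) and Tmem26 was lower. In wild-type mice 4 were higher (Otop1, P2rx5, Slc36a2 and Car4) and none was lower. These are calls at a Benjamini-Hochberg adjusted p under 0.05 in limma over all 22180 genes. The background was 6.88% of all genes higher and 6.33% lower in null mice, and 8.35% higher and 8.3% lower in wild-type mice. With array medians subtracted first, the calls over all genes were 1767 higher and 1039 lower in null mice (1525 and 1405 without), and 2368 higher and 1354 lower in wild-type mice (1852 and 1841 without). The markers called in each genotype stayed the same under that scaling. The median change of the markers was 0.33 in null and 0.12 in wild-type mice, beside -0.0034 and 0.0093 over all genes. The groups at 5 °C and 28 °C did not overlap at all for 4 markers in each genotype, all of them higher, beside 5.05% of all genes in null and 6.27% in wild-type mice. No marker was lower without overlap, beside 4.06% and 5.53% of all genes. The sign of the change was the same in both genotypes for 8 of the 10. The exceptions, Tnfrsf9 and Cited1, were not called in either genotype. The share of all genes with the same sign was not computed, so this count does not set the markers apart.

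**Figure D1:**
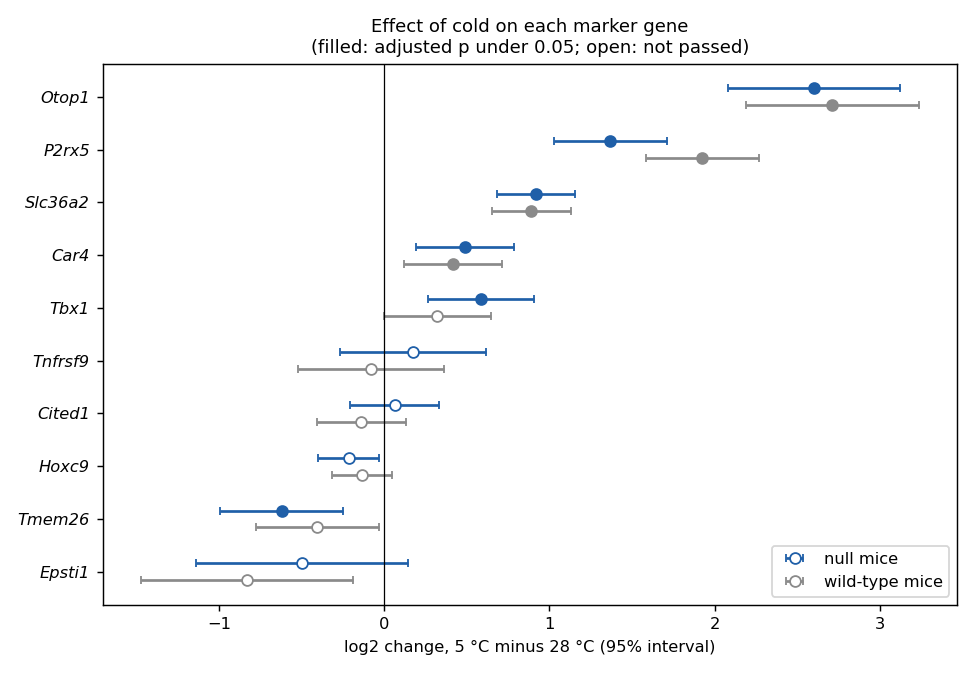
Log2 change of each marker at 5 °C minus 28 °C on the horizontal axis, in null mice (blue, upper of each pair) and wild-type mice (grey), with 95% intervals and filled points where the adjusted p is under 0.05. Otop1, P2rx5 and Slc36a2 are the highest in both genotypes, and the remaining 7 lie between -0.83 and 0.59. Of these, Car4 is filled in both genotypes, with intervals of 0.19 to 0.78 in null and 0.12 to 0.72 in wild-type mice.

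The markers with the largest increases were 3 membrane transporters and channels. Otop1 encodes otopetrin 1, a channel that lets protons across the membrane. Its level was 8.79, 7.89, 8.04, 8.28 and 8.23 in the 5 null mice at 5 °C, against 4.96 to 6.42 with a median of 5.77 in the 6 null mice at 28 °C. In wild-type mice it was 8.69, 8.42, 8.34, 8.46 and 8.52 at 5 °C, against 5.04 to 6.59 with a median of 5.82 at 28 °C. Every array at 5 °C was above every array at 28 °C, in both genotypes. The change was 2.60 ± 0.25 (SE; 6.07-fold) in null mice and 2.71 ± 0.25 (6.56-fold) in wild-type mice, with limma adjusted p of 2.1e-07 and 9.0e-08. By size of increase Otop1 ranked 9 of 22180 genes in null and 8 in wild-type mice. Otop2 and Otop3, the other otopetrins, did not pass the test in either genotype, with average changes of 0.13 and -0.02. Group means of Otop3 (2.44 to 2.62) lay below the arrays' lower quartile (2.83 to 2.91). Those of Otop2 (3.57 to 3.76) lay below the array medians. At such low signal a lack of change says little.

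P2rx5, an ion channel opened by extracellular ATP and used as a surface marker of brown and beige cells, came next. It stood at 7.43, 6.62, 6.73, 7.08 and 7.05 in null mice at 5 °C, against 5.14 to 5.88 (median 5.75) at 28 °C. Wild-type mice had 7.42, 7.30, 7.24, 7.0 and 7.23 at 5 °C, against 4.85 to 5.66 (median 5.40) at 28 °C. The groups did not overlap in either genotype. The increase was 1.37 ± 0.16 (2.58-fold) in null and 1.93 ± 0.16 (3.80-fold) in wild-type mice, with limma adjusted p of 3.7e-06 and 3.2e-08. Of the other 6 P2X receptors, averaged over the genotypes, P2rx6 rose by 0.36, P2rx7, a receptor common on immune cells, fell by 0.47 and P2rx4 fell by 0.21, while P2rx1, P2rx2 and P2rx3 did not pass the test. In single genotypes 1 of the 6 rose and 1 fell in null mice, and none rose and 2 fell in wild-type mice. P2rx2 (group means 2.87 to 2.99) and P2rx3 (3.10 to 3.37) had low signal, near the arrays' lower quartile.

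Slc36a2 encodes PAT2, a transporter that carries small amino acids together with protons and sits on the surface of brown and beige adipocytes. Its level was 10.36, 10.16, 10.15, 10.38 and 10.27 in null mice at 5 °C, against 9.06 to 9.82 (median 9.24) at 28 °C. It was 10.26, 9.99, 10.24, 10.15 and 10.17 in wild-type mice at 5 °C, against 9.03 to 9.44 (median 9.28) at 28 °C. Again no array of a cold group reached down to the 28 °C group. The change was 0.92 ± 0.11 (1.89-fold) in null and 0.89 ± 0.11 (1.86-fold) in wild-type mice, with limma adjusted p of 5.7e-06 and 7.2e-06. Its relatives Slc36a1, Slc36a3 and Slc36a4 did not pass the test, with average changes of -0.07, -0.06 and -0.25. Slc36a3 had low signal (group means 3.05 to 3.20), near the arrays' lower quartile. With the mean of the muscle markers as a covariate, the changes of Slc36a2 were 0.92 in null and 0.89 in wild-type mice and those of P2rx5 were 1.34 and 1.96.

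**Figure D2:**
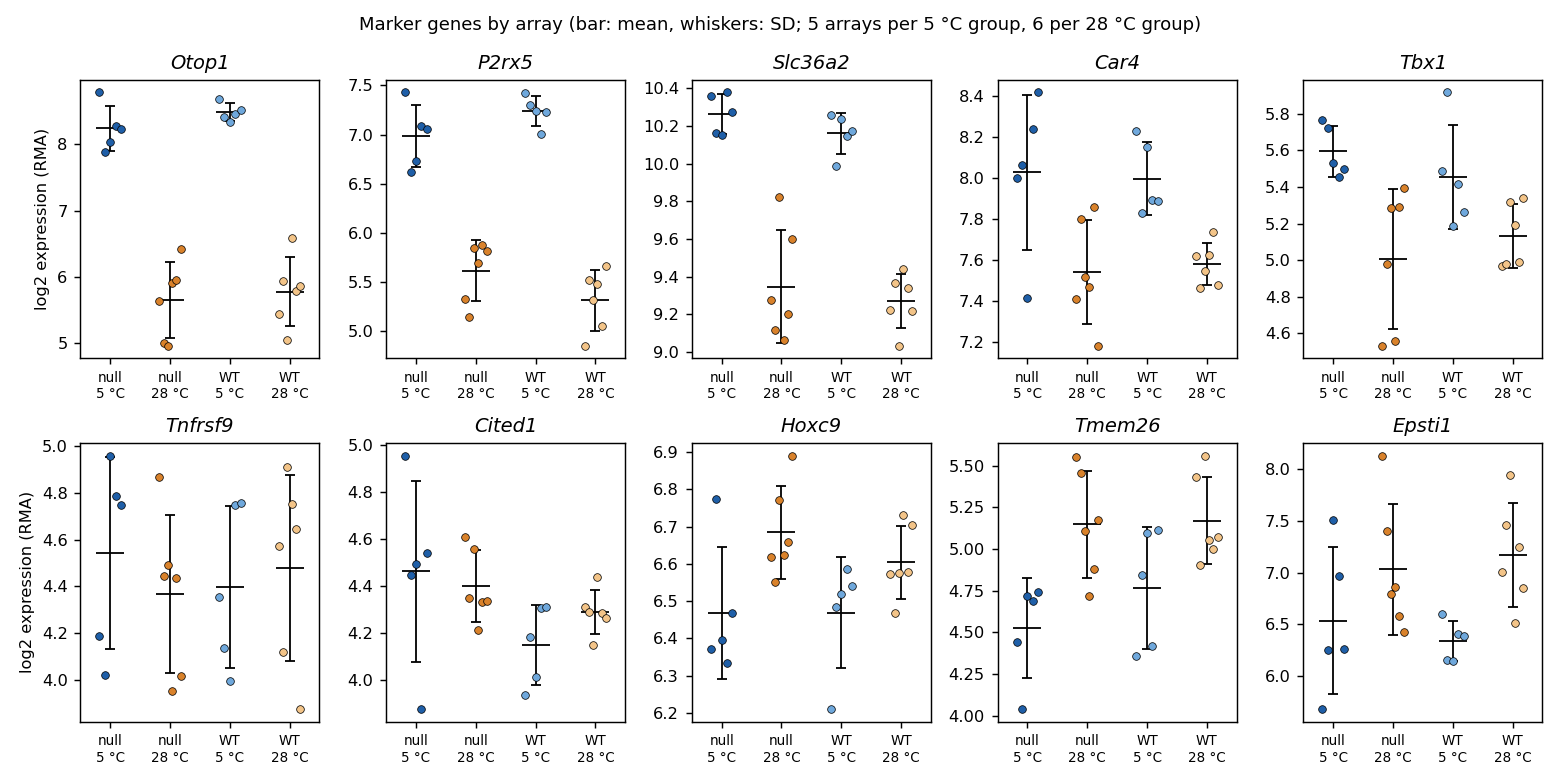
Log2 expression of each marker on every array, by genotype and temperature, with the mean as a bar and whiskers of 1 SD; each panel has its own vertical axis, which does not start at 0. Otop1, P2rx5 and Slc36a2 form separate clouds at 5 °C and 28 °C, while the groups of Tnfrsf9, Cited1, Tmem26 and Epsti1 overlap.

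Car4, a carbonic anhydrase anchored to the outer face of the membrane that is also present on capillary endothelium, changed less. It was 8.00, 8.07, 7.42, 8.24 and 8.42 in null mice at 5 °C, against 7.18 to 7.86 (median 7.49) at 28 °C. Wild-type mice had 8.23, 7.83, 8.15, 7.89 and 7.89 at 5 °C, against 7.47 to 7.74 (median 7.59) at 28 °C. The groups overlapped in null mice through replicate 3 at 5 °C and did not overlap in wild-type mice. The increase was 0.49 ± 0.14 in null and 0.42 ± 0.14 in wild-type mice, with limma adjusted p of 0.0249 and 0.0480, close to the threshold. In null mice the call was lost without replicate 4 or 5 at 5 °C or replicate 1 or 6 at 28 °C (0.39 to 0.46, adjusted p 0.0516 to 0.0888). In wild-type mice it was lost in 14 of 22 fits that left out 1 array (0.36 to 0.45, adjusted p 0.0519 to 0.127): without wild-type replicate 1, 3, 4 or 5 at 5 °C, wild-type replicate 1, 2, 3, 4 or 6 at 28 °C, null replicate 1 or 2 at 5 °C, or null replicate 1, 3 or 4 at 28 °C. Averaged over the genotypes Car4 rose by 0.45 ± 0.10 (adjusted p = 0.00166), a call that no single array decided.

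The mean of 9 endothelial markers was 8.63 ± 0.14 in null mice at 5 °C and 8.70 ± 0.10 at 28 °C, and 8.66 ± 0.10 in wild-type mice at 5 °C and 8.74 ± 0.10 at 28 °C. With that mean as a covariate, Car4 rose by 0.59 in null and 0.52 in wild-type mice. The call in wild-type mice was lost with the lymphocyte covariate (0.39, adjusted p = 0.0699), the muscle covariate (0.38, adjusted p = 0.0724), the interferon covariate (0.22, adjusted p = 0.589), quantile normalization (0.42, adjusted p = 0.0528) and array weights (0.40, adjusted p = 0.0609). The call in null mice was lost with the interferon covariate (0.32, adjusted p = 0.383) and with only the 2 groups compared in the fit (0.49, adjusted p = 0.103). Averaged over the genotypes, 3 of 13 other carbonic anhydrases rose, the relative Car11 by 0.61, the cytosolic Car13 by 0.56 and the mitochondrial Car5b by 0.29. The list had 2 that fell, Car8 by 0.46 and Car3, an abundant enzyme of the adipocyte cytosol, by 0.10. Over all genes 11.7% rose and 13.1% fell in that comparison, so the count that fell is near the background.

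Among the transcription regulators, Tbx1, a T-box factor proposed as a beige marker, was called in null mice. It stood at 5.77, 5.72, 5.53, 5.45 and 5.50 in null mice at 5 °C, against 4.53 to 5.40 (median 5.13) at 28 °C. Wild-type values were 5.49, 5.92, 5.19, 5.41 and 5.26 at 5 °C, against 4.97 to 5.34 (median 5.09) at 28 °C. The groups did not overlap in null mice, by a narrow margin, and overlapped in wild-type mice. The change was 0.59 ± 0.16 in null mice (limma adjusted p = 0.0130) and 0.32 ± 0.16 in wild-type mice (adjusted p = 0.177), and the difference between these 2 effects, 0.26 with a 95% interval of -0.19 to 0.72, did not pass the test (adjusted p = 0.994). Of 14 other T-box genes, averaged over the genotypes, Tbx3 rose by 0.70 and Tbx18 fell by 0.28, and no other passed the test. Over all genes 11.7% rose and 13.1% fell in that comparison.

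The highest arrays of Tbx1 coincided with those of skeletal muscle signal. In each of the 4 groups the array with the most Tbx1 was also the one with the highest mean of 16 muscle markers. In 3 of the 4 groups it was also the highest for preadipocyte and matrix markers. Over the remaining arrays Tbx1 and muscle levels did not keep together at 28 °C, and no test was made. In wild-type mice there, the array lowest for Tbx1 (4.97) had a muscle mean of 8.90. That lowest for muscle (7.11) had Tbx1 at 5.32. In null mice at 28 °C the arrays with the least Tbx1 (4.53 and 4.56) had muscle means of 7.12 and 7.39. At 5 °C the array lowest for Tbx1 was also lowest for muscle, in null (5.45 and 6.34) and wild-type mice (5.19 and 6.16). The muscle means of the arrays highest for Tbx1 were 9.44 in null mice at 5 °C, 8.43 in null mice at 28 °C, 10.13 in wild-type mice at 5 °C and 9.36 in wild-type mice at 28 °C. Group means of the muscle markers were 7.30 ± 1.27 in null mice at 5 °C and 6.85 ± 1.00 at 28 °C, and 7.71 ± 1.59 in wild-type mice at 5 °C and 8.31 ± 0.84 at 28 °C, and none of the 16 passed the test for cold in either genotype. With that mean as a covariate Tbx1 changed by 0.55 in null mice (adjusted p = 0.0179) and by 0.37 in wild-type mice (adjusted p = 0.105).

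Cited1, a transcriptional coregulator proposed as a beige marker, showed no call. Its level was 4.95, 4.45, 4.49, 3.88 and 4.54 in null mice at 5 °C, against 4.21 to 4.61 (median 4.34) at 28 °C. It was 3.94, 4.18, 4.01, 4.31 and 4.31 in wild-type mice at 5 °C, against 4.15 to 4.44 (median 4.29) at 28 °C. The groups overlapped in both genotypes, and the changes were 0.06 with a 95% interval of -0.21 to 0.33 in null and -0.14 with an interval of -0.41 to 0.13 in wild-type mice. Signal of Cited1 was low, with a mean over all arrays (4.33) near the array medians (4.16 to 4.25). The relative Cited2 fell in both genotypes, by 0.69 in null and 1.06 in wild-type mice, while Cited4 did not pass the test.

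Hoxc9, a homeobox factor of posterior position that is expressed in inguinal white and beige fat rather than in classical brown fat, had the least spread of the markers within groups (SD 0.14, beside a median of 0.22 over all genes). It ran at 6.37, 6.77, 6.39, 6.33 and 6.47 in null mice at 5 °C, against 6.55 to 6.89 (median 6.64) at 28 °C. Wild-type mice had 6.21, 6.48, 6.52, 6.59 and 6.54 at 5 °C, against 6.47 to 6.73 (median 6.58) at 28 °C. The groups overlapped in both genotypes. The changes of -0.22 ± 0.09 in null and -0.14 ± 0.09 in wild-type mice did not pass the test (limma adjusted p of 0.121 and 0.340), though without null replicate 2 at 5 °C the change in null mice was -0.29 (adjusted p = 0.0226).

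Averaged over the genotypes Hoxc9 fell by 0.18 ± 0.06 (adjusted p = 0.0422), a call lost with array medians subtracted (-0.13, adjusted p = 0.143) and in 14 of 22 fits that left out 1 array (-0.18 to -0.14, adjusted p 0.0510 to 0.0898). Those arrays were null replicates 1, 3, 4 and 5 and wild-type replicates 1 and 2 at 5 °C, and null replicates 3, 5 and 6 and wild-type replicates 1, 3, 4, 5 and 6 at 28 °C. Quantile normalization (-0.16, adjusted p = 0.0706), array weights (-0.16, adjusted p = 0.0589) and the endothelial covariate (-0.19, adjusted p = 0.0527) also ended the call. The other 8 measured genes of the Hoxc cluster had 1 call in the average comparison, Hoxc10, which rose by 0.26. Of all genes 24.8% were called there in either direction. Hoxc9 lies 17.2 Mb from Ppara on chromosome 15 and did not differ between the genotypes beyond its error, by 0.00 (95% interval -0.19 to 0.19) at 5 °C and 0.08 (-0.09 to 0.26) at 28 °C.

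Tmem26 and Tnfrsf9, surface proteins proposed as beige markers, did not rise. Tmem26, a transmembrane protein, was 4.44, 4.04, 4.72, 4.69 and 4.74 in null mice at 5 °C, against 4.72 to 5.55 (median 5.14) at 28 °C. It was 4.36, 4.84, 5.10, 4.42 and 5.12 in wild-type mice at 5 °C, against 4.90 to 5.56 (median 5.06) at 28 °C. The groups overlapped narrowly in null mice and more widely in wild-type mice. The change was -0.62 ± 0.18 in null mice (limma adjusted p = 0.0223) and -0.40 ± 0.18 in wild-type mice (adjusted p = 0.137). The call in null mice was lost without replicate 1 or 2 at 5 °C or replicate 1 or 2 at 28 °C (-0.60 to -0.50, adjusted p 0.0532 to 0.0780). Averaged over the genotypes Tmem26 fell by 0.51 ± 0.13 (adjusted p = 0.0039). Signal of Tmem26 was modest, with a mean over all arrays of 4.93, above that of 52.5% of all genes. Its mean in null mice at 5 °C (4.525) came near the array medians (4.16 to 4.25), which limits how well the fall is measured.

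Tnfrsf9 encodes CD137, a receptor best known from activated T cells. Its level was 4.19, 4.02, 4.96, 4.79 and 4.75 in null mice at 5 °C, against 3.95 to 4.87 (median 4.44) at 28 °C. Wild-type mice had 4.35, 4.13, 3.99, 4.75 and 4.76 at 5 °C, against 3.87 to 4.91 (median 4.61) at 28 °C. All 4 groups covered much the same range. The changes were 0.17 with a 95% interval of -0.27 to 0.62 in null and -0.08 with an interval of -0.52 to 0.36 in wild-type mice, so that a change of 1 in either direction lies outside both. The mean over all arrays (4.44) was near the array medians (4.16 to 4.25), a level at which a lack of change says less. The CD137 ligand Tnfsf9 and the adaptors Traf1 and Traf2 did not pass the test, with average changes of -0.10, -0.48 and -0.01.

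Epsti1, an interferon-induced gene used in some panels as a classical brown marker, had the widest spread of the markers within groups (SD 0.55, larger than for 97.7% of all genes). It was 5.68, 6.25, 7.51, 6.96 and 6.26 in null mice at 5 °C, against 6.43 to 8.13 (median 6.82) at 28 °C. Wild-type mice had 6.60, 6.16, 6.15, 6.40 and 6.38 at 5 °C, against 6.51 to 7.95 (median 7.12) at 28 °C. The groups overlapped in both genotypes, in wild-type mice by a single cold array. The changes of -0.50 ± 0.31 in null and -0.83 ± 0.31 in wild-type mice did not pass the test (limma adjusted p of 0.359 and 0.0708). Without null replicate 3 at 5 °C, null replicate 1 at 28 °C or wild-type replicate 4 at 28 °C the change in wild-type mice was called (-0.96 to -0.83, adjusted p 0.0390 to 0.0465). Averaged over the genotypes Epsti1 fell by 0.66 ± 0.22 (adjusted p = 0.0284), a call lost without null replicate 1, 2 or 5 at 5 °C or wild-type replicate 3 at 28 °C (-0.63 to -0.56, adjusted p 0.0513 to 0.0627).

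**Figure D3:**
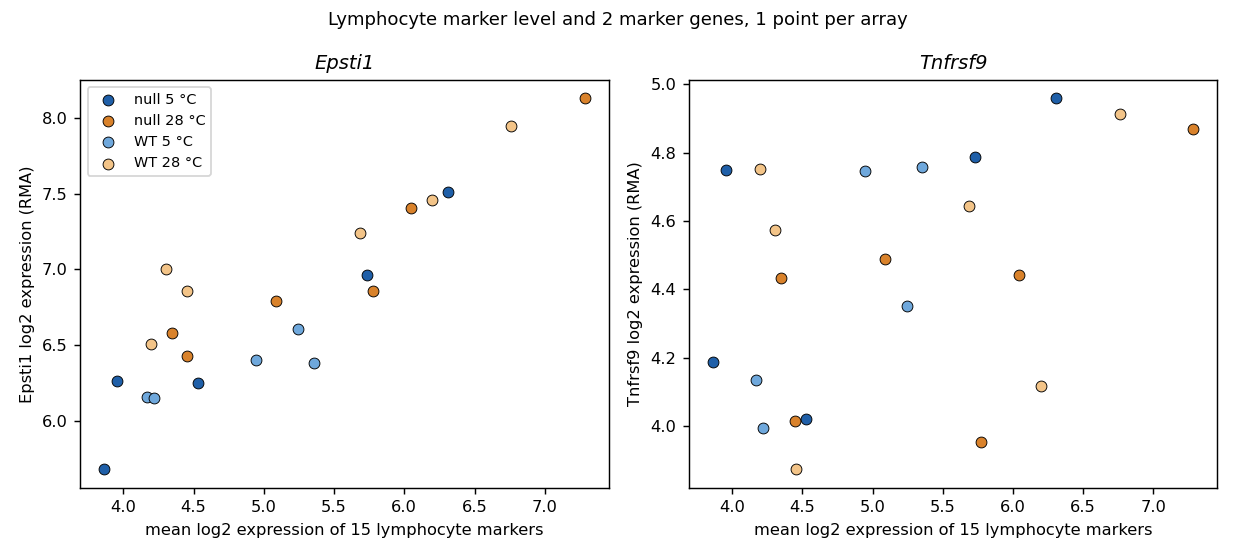
Log2 expression of Epsti1 (left) and Tnfrsf9 (right) on each array against the mean log2 level of 15 lymphocyte markers on the horizontal axis, coloured by group. Epsti1 climbs with the lymphocyte mean across all 4 groups, from 5.68 to 8.13, whereas Tnfrsf9 lies scattered between 3.87 and 4.96.

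Lymphocyte signal differed widely from pad to pad, and in bulk tissue fewer cells of a type and less RNA per cell cannot be told apart. The mean of 15 lymphocyte markers was 4.88 ± 1.09 in null mice at 5 °C and 5.50 ± 1.11 at 28 °C, and 4.79 ± 0.56 in wild-type mice at 5 °C and 5.27 ± 1.10 at 28 °C. None of the 15 passed the test for cold, although their median change was -0.67 in null and -0.58 in wild-type mice. Their summed linear signal ran from 257 to 1744 in null mice at 5 °C and from 364 to 3923 at 28 °C, and from 305 to 826 in wild-type mice at 5 °C and from 326 to 2653 at 28 °C. By group mean only Ctla4 lay below the arrays' lower quartile, in every group.

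The 3 genes closest to Epsti1 over the 22 arrays after the group means were removed were Rac2, Ctsw and Vcam1 (Pearson's r of 0.95 to 0.96), of which Rac2 is a signalling GTPase of blood cells and Ctsw a protease of killer lymphocytes. With the lymphocyte mean as a covariate the change of Epsti1 was -0.18 in null mice (adjusted p = 0.412) and -0.58 in wild-type mice (adjusted p = 0.00136), and -0.38 on average (adjusted p = 0.0022). In 4 of the 4 groups Tnfrsf9, and in 3 of the 4 both Epsti1 and Tmem26, were highest on the array with the most lymphocyte signal. With the lymphocyte covariate the average change of Tmem26 was -0.47 (adjusted p = 0.0106).

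Of 11 measured interferon-response genes, 6 fell on average and none rose, led by Xaf1 (-0.39), Oas2 (-0.47), Usp18 (-0.56) and Irf7 (-0.39). The median was -0.35 beside 0.0075 over all genes, of which 13.1% fell and 11.7% rose. In single genotypes 1 of the 11 fell in null and 6 in wild-type mice. Their mean was 6.19 ± 0.08 in null mice at 5 °C and 6.47 ± 0.16 at 28 °C, and 6.09 ± 0.10 in wild-type mice at 5 °C and 6.42 ± 0.14 at 28 °C. Epsti1 in each of the 4 groups, Tnfrsf9 in 3 and Tmem26 in 2 were highest on the array with the highest interferon mean. With that mean, which itself differs between the temperatures, as a covariate, the average change of Epsti1 turned to 0.12 (adjusted p = 0.865).

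The same covariate ended the average calls of Tbx1 (0.44, adjusted p = 0.142), Tmem26 (-0.28, adjusted p = 0.450), Car4 (0.27, adjusted p = 0.352) and Hoxc9 (-0.26, adjusted p = 0.0989), and left those of Otop1 (2.21), P2rx5 and Slc36a2. Without it these changes were 0.45, -0.51, 0.45 and -0.18, so that Tbx1 hardly moved and the change of Hoxc9 was larger with it. Calls over all genes fell from 2586 higher and 2913 lower to 1229 and 1368. The interferon and endothelial covariates were added after the values had been seen. The coincidences of highest arrays were noticed in the values among 80 pairs of a marker and a gene list. The array was shared in all 4 groups for 3 pairs, in 3 groups for 5 pairs and in none for 41 pairs, and no test was made of them.

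Whether PPARα was present made no detectable difference to any of the 10. The difference of the cold effects, null minus wild type, passed the test for 0 of 10 markers and for 0% of all genes in limma. At an unadjusted p under 0.05 it did so for 1 marker, P2rx5, beside 5.13% of all genes. The cold increase of P2rx5 was smaller in null mice by 0.56 ± 0.23 (95% interval of the difference -1.04 to -0.08, limma adjusted p = 0.963), which does not hold after adjustment. For 8 of the 10 markers the 95% interval of the difference lay within -1 and 1, the exceptions being P2rx5 and Epsti1 (-0.57 to 1.24). Genotype differences at one temperature were small too. At 5 °C, null minus wild type ran from -0.26 (P2rx5) to 0.31 (Cited1) and no marker was called, beside 0.149% of all genes (0.0406% higher and 0.108% lower). At 28 °C it ran from -0.14 (Epsti1) to 0.30 (P2rx5), with no call beside 0.194% of all genes (0.0451% higher and 0.149% lower).

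At an unadjusted p under 0.05 there was 1 marker at 5 °C, Cited1 (limma adjusted p = 0.700), beside 6.65% of all genes. At 28 °C there was none, beside 6.74%. The 95% intervals of all 10 markers lay within -1 and 1 at both temperatures, and the groups of null and wild-type mice overlapped for every marker. Over all genes, 0.568% were higher and 0.654% lower without overlap at 5 °C, and 0.257% and 0.298% at 28 °C.

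**Figure D4:**
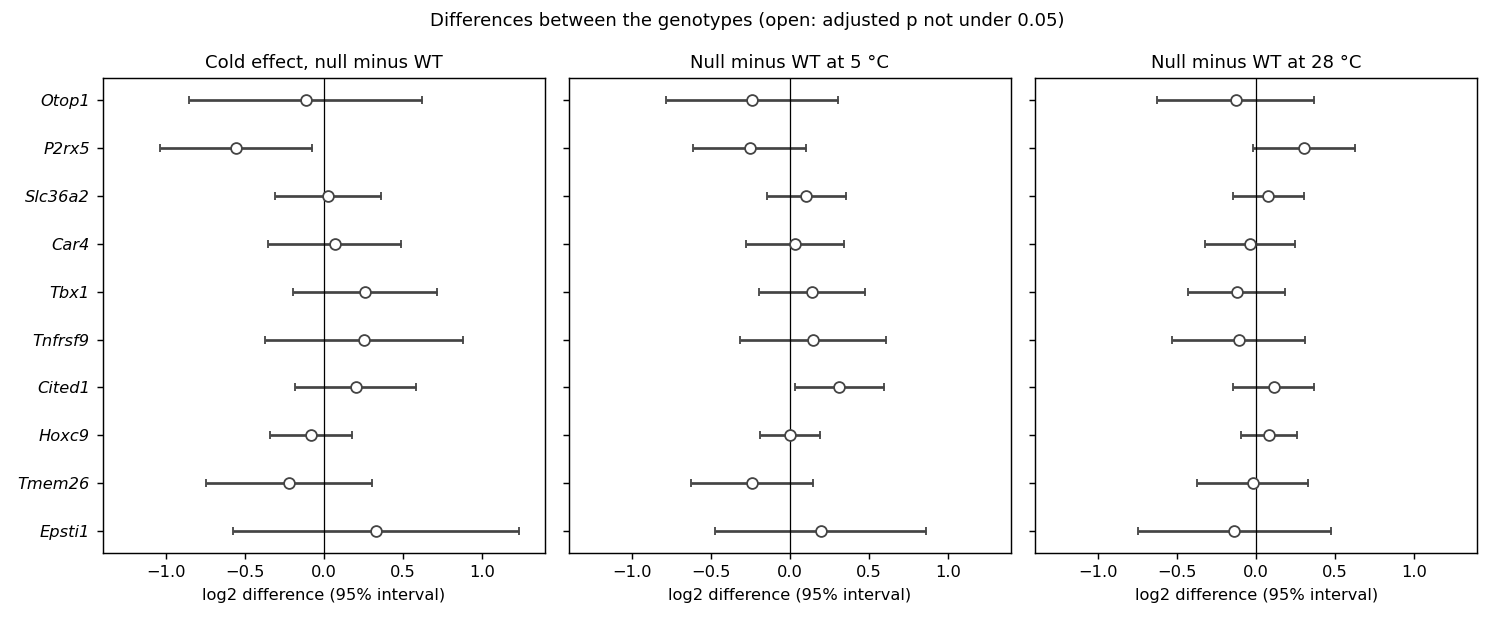
Differences between null and wild-type mice for each marker with 95% intervals, in log2 units: the difference of the cold effects (left), null minus wild type at 5 °C (middle) and at 28 °C (right). Every point is open (adjusted p not under 0.05), and the interval for the cold effect of P2rx5 (-1.04 to -0.08) lies wholly below 0.

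The average of both genotypes' cold effects puts the 10 markers in order. It was called for 8 markers, 5 higher and 3 lower, beside 24.8% of all genes in either direction, 11.7% higher and 13.1% lower (2586 and 2913 genes, or 3325 and 2206 with array medians subtracted). Otop1 (2.66), P2rx5 (1.65) and Slc36a2 (0.91) came first, with 95% intervals that did not overlap. Car4 and Tbx1 followed at 0.45 each and did not differ beyond their errors. Tnfrsf9 (0.05) and Cited1 (-0.04) were not called, with intervals of -0.27 to 0.36 and -0.23 to 0.15. Hoxc9 (-0.18), Tmem26 (-0.51) and Epsti1 (-0.66) were lower, and the intervals of neighbours in that part of the order overlapped. The changes of the markers spanned 3.22 log2 units in null and 3.54 in wild-type mice. Counts for gene lists are given mostly in this comparison, which was preferred after it had been seen that they moved less between settings there. The 11.7% higher and 13.1% lower over all genes are the background for those counts.

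The thermogenic genes, which brown and beige cells use to make heat, had larger changes. Of 17 measured, 15 rose and 1 fell on average, with a median of 2.14. In single genotypes 14 rose in null and 15 in wild-type mice and none fell. Elovl3, an enzyme of very long chain fatty acid synthesis, rose by 6.82, Letmd1, a mitochondrial protein, by 1.87, and the muscle and brown fat isoform Cox7a1 of cytochrome oxidase by 3.78. Ucp1 itself rose by 6.98. The 1 that fell was Ebf2, a factor of brown and beige precursor cells (-0.23), which was not called with array medians subtracted.

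Other beige and brown markers changed in both directions too. Of 7 other measured beige markers, 4 rose on average, the fatty acid transporter Slc27a1 by 0.75, the secreted hormone Fgf21 by 0.57, the thioesterase Acot2 by 0.47 and Mtus1 by 0.28. Klhl13 fell by 0.39 and Sp100, an interferon-induced nuclear body protein, by 0.49, while Cd40 (-0.49) did not pass the test. In null mice 4 of the 7 rose and 1 fell, and in wild-type mice 2 rose and 2 fell. Of 7 classical brown markers, Mpzl2, an adhesion protein also called Eva1, rose by 1.49, and Lhx8 (-0.44) and Hspb7 (-0.65) fell. Zic1, a factor of classical brown cells, changed by 0.26 and did not pass the test, at low signal (group means 2.79 to 3.18). Per genotype 1 of the 7 rose and 1 fell in null mice, and likewise in wild-type mice.

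The white adipocyte markers had 5 that fell on average and 1 that rose of 13 measured. Neuronatin (Nnat) fell by 1.26, the satiety hormone leptin (Lep) by 0.74, angiotensinogen (Agt) by 0.48 and the matrix protein Dpt by 0.47. In null mice 4 of the 13 fell and in wild-type mice 2, and none rose in either. Both Hoxc10, which rose, and Hoxc8 belong to this list and to the Hoxc cluster.

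**Figure D5:**
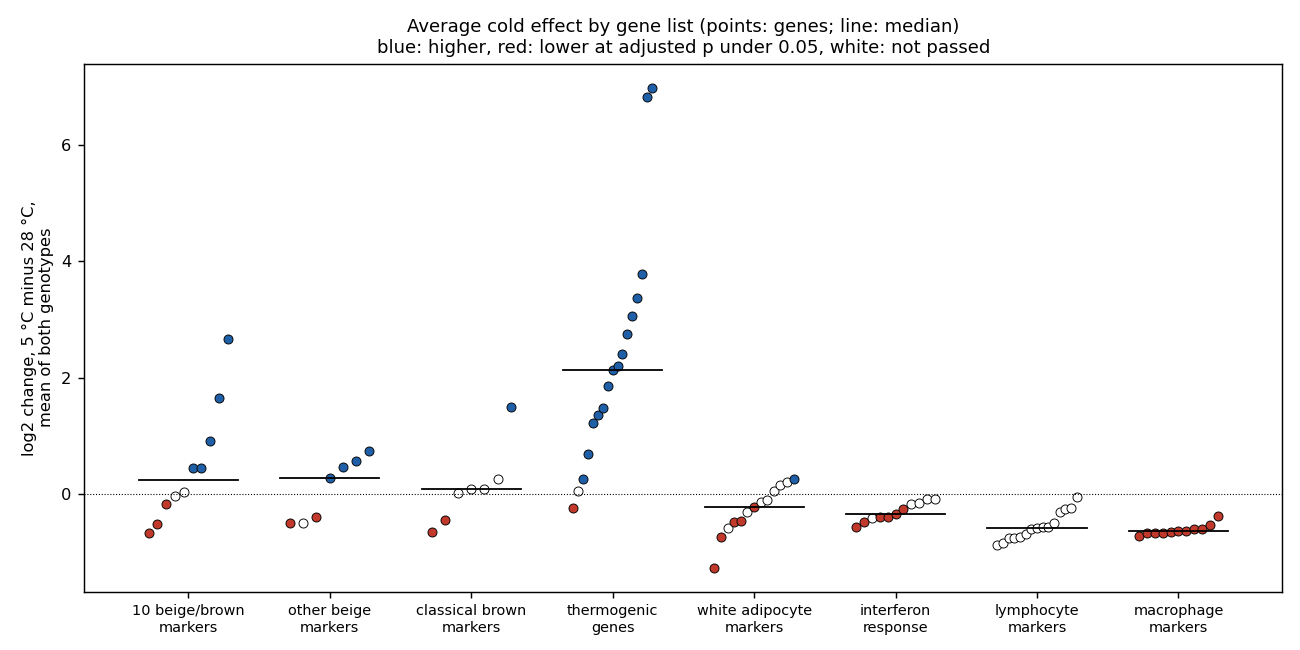
Average cold effect of each gene (vertical axis, log2 change at 5 °C minus 28 °C) in 8 gene lists, with the list's median as a line; blue points rose, red points fell and white points did not pass the test. The 10 markers run from -0.66 to 2.66 around a median of 0.25, while thermogenic genes reach 6.98 and all 11 macrophage markers lie below 0.

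Markers of other cells in the pad moved too. All 11 macrophage markers fell in both genotypes (median -0.61 in null and -0.65 in wild-type mice), as did all 9 measured markers of preadipocytes and matrix (-0.53 and -0.70), beside median changes over all genes of -0.0034 and 0.0093. The part of these shifts in the lower level of Tmem26, Hoxc9 and Epsti1 was not tested. Adipocyte markers had 1 call of 5 on average, Adipoq (-0.32). Endothelial markers had 2 of 9, Kdr (0.23) and Tek (-0.38). Epithelial markers had none of 6, at group means between 3.75 and 3.89.

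For each marker the genes with the most similar pattern over the 22 arrays were found by Pearson's r, which for genes that moved with cold mostly follows the split between the temperatures that all of these arrays share. Otop1 was closest to Gys2 (r = 0.98), the liver form of glycogen synthase, to Stradb (0.98) and to Gpd2 (0.98), the mitochondrial glycerol phosphate dehydrogenase. Slc36a2 was closest to Uqcrc1 (0.98), Mcrip2 (0.97) and Cyc1 (0.97), of which Uqcrc1 and Cyc1 are subunits of respiratory complex III. P2rx5 was closest to Afg1l (0.98), Sod2 (0.97), the mitochondrial superoxide dismutase, and Cpt2 (0.97), an enzyme of fatty acid entry into mitochondria. Among the markers called lower in the average of both genotypes, Tmem26 was closest to Gfra2 (0.83), a receptor for neurotrophic factors. Hoxc9, whose call was lost in several settings, was closest to Dact2 (0.83) and En1 (0.82), a homeobox factor.

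With the group means removed, which leaves differences between mice of 1 group, other genes came first for Otop1, P2rx5, Slc36a2 and Car4 but not for Tbx1. Otop1 was then closest to Pm20d1 (0.87), a secreted enzyme that makes N-acyl amino acids, P2rx5 to Cda (0.84), cytidine deaminase, and Slc36a2 to Mlxipl (0.86), the carbohydrate response factor ChREBP. Car4 was closest to Pkp4 over all arrays (0.87) and to Psd3 within groups (0.84). Tbx1 was closest to Ubr3 by both measures (0.85 and 0.81). Tnfrsf9 was closest to Ormdl1 over all arrays (0.70) and to Plekhg2 within groups (0.81), and Cited1 to Atn1 (0.73) and Smarcc1 (0.74). These are descriptions from a search over all genes and carry no test.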

How the data were processed

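Expression was measured on Affymetrix whole-transcript arrays of RNA (100 ng each, RNA integrity number over 8), per the labels. The authors made the deposited log2 values with RMA, per the submitters' processing notes; the sources used here do not give its version. They were used as deposited. There were 41345 probe sets: 23521 named 1 gene, 1814 several and 16010 none. A gene was its brightest single-symbol probe set over all arrays. The 4 groups entered 1 limma (3.58.1, R 4.3.3) fit per gene with 18 residual degrees of freedom, and 6 comparisons were adjusted by Benjamini-Hochberg over all 22180 genes and called at an adjusted p under 0.05. Changes carry the SE of the fit and levels the SD. No low-signal filter was used, and the fit was tested on simulated data.

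The markers and gene lists were chosen with earlier results of these data known. The lists were thermogenic genes, other beige, classical brown and white markers, relatives of 6 markers (Slc36, P2X, otopetrin, Cited, T-box and carbonic anhydrase genes), the Hoxc cluster, the CD137 axis, interferon response, and markers of adipocytes, lymphocytes, muscle, macrophages, endothelium, epithelium and preadipocytes with matrix; 16 listed genes had no probe set of their own. All 10 markers are named, and in each list up to 4 genes with the smallest p in the average cold effect. Car3, Mtus1, Fgf21, Cd40, Ebf2, Hoxc10, Hoxc8 and Ctla4 were named beyond this after their values were seen, where they complete a short count. Similar genes are the 3 with the highest Pearson correlation, of which some are given. Alternatives were scaling, low-signal filters, the probe set rule, the variance model, array weights, the groups in the fit, the threshold, replicate number as a block, marker means as covariates and leaving out each array.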

Additional observations from a re-analysis of the deposited data

Results flagged for a closer look

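The level of Hoxc9 in replicate 1 of the wild-type mice at 5 °C was 6.21, and the next lowest of the 5 arrays was 6.48. The gap was 0.731 of the group's range, above the critical value of 0.71 for 5 samples. This was 1 of 40 groups of values tested, and chance marks about 1 in 20. Without that array the average cold effect on Hoxc9 was not called (adjusted p = 0.0898). The call was lost in 14 of 22 fits that left out 1 array, this one included, so the loss is not particular to it.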

How the results depend on the processing

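Otop1, P2rx5 and Slc36a2 kept their direction and their calls in both genotypes and in the average under every alternative run, with average changes of 2.21 to 2.74, 1.59 to 1.70 and 0.88 to 0.95 over the settings other than those that left out an array. The smaller calls did not. With the interferon covariate and at an unadjusted p under 0.001, lower markers in null mice numbered 0 and higher markers 3. The higher count there was 4 with only the groups compared in the fit and with the replicate block. In wild-type mice the count of higher markers was 3, without Car4, with quantile normalization, array weights, the replicate block, the lymphocyte, muscle or interferon covariate and at an unadjusted p under 0.001. There the count of lower markers became 1 (Epsti1) with the dimmest 50% of genes left out, with only the groups compared in the fit, and with the lymphocyte, muscle or endothelial covariate. In the average the higher count was 3 and the lower count 0 with the interferon covariate, and the lower count 1 at an unadjusted p under 0.001. Leaving out each array in turn gave 4 to 5 higher and 0 to 1 lower markers in null mice, 3 to 4 higher and 0 to 1 lower in wild-type mice, and 5 higher and 1 to 3 lower in the average; the genotype comparisons stayed at 0. The cause of these shifts was not tested. The 1 called change that took the other sign was Epsti1 in the average with the interferon covariate. There it was 0.12 and not called (limma adjusted p = 0.865). In addition, 14 changes that were not called changed sign under a setting and 32 under a left-out array. Over the settings 26 marker calls were lost and 5 gained, and over left-out arrays 40 and 4.

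With the replicate number as a block, Car4 was 0.44 in null (adjusted p = 0.0525) and 0.37 in wild-type mice (adjusted p = 0.0890), and Hoxc9 -0.15 in the average (adjusted p = 0.125); no other marker's call changed. The numbers are not a pairing in the labels: residuals of the 31 same-numbered pairs correlated by -0.25 to 0.35, with 6 over 0.1, and 4 of 22 arrays correlated best with their own number.

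Counts of genes in lists that moved by over 1.5 times were interferon genes lower in null mice (1, or 2 to 4), white markers lower in wild-type mice (2, or 4 and 6), other beige markers lower in null mice (1, or 0 and 2), classical brown markers lower in wild-type mice (1, or 0) and in the average (2, or 1), T-box genes lower in the average (1, or 0 and 2), and carbonic anhydrases lower in wild-type mice (1, or 0 and 2) and in the average (2, or 1). Slc36 and Hoxc genes lower in the average were 0, or 1, and endothelial markers lower in the average and in wild-type mice 1, or 2. P2X receptors higher were 1, or 2, in null and 0, or 1, in wild-type mice. Thermogenic genes lower were 0, or 1, in wild-type mice and 1, or 0, in the average, Hoxc genes lower in wild-type mice 0, or 1, and endothelial markers higher in null mice 0, or 1. Over all genes the interferon covariate left 858 higher and 821 lower in null, 1004 and 1037 in wild-type mice and 1229 and 1368 in the average. At an unadjusted p under 0.001 the average had 1706 and 1711, wild-type mice 1222 and 1027, null mice 757 lower, and the difference of the cold effects 12 in each direction. That threshold gave 34 higher and 52 lower genes at 28 °C and 31 and 60 at 5 °C between the genotypes. Fitting only the groups compared gave 11 lower at 5 °C, against 24. Neither scaling moved the median of all genes by over 0.05 in any comparison. Tnfrsf9 and Cited1 had no value with the dimmest 50% left out.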
